A study of Mus musculus with 6 samples.

Results

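Iron uptake, storage and export were followed in mouse colon through 10 genes, namely Tfrc, Cybrd1, Heph, Fth1, Ftl1, Steap3, Hfe, Ireb2, Slc11a2 and Slc40a1, among the 18193 named genes of the array. Their probe sets were taken by gene symbol alone, and every probe set that carries 1 of these symbols and no other was kept. This gave 20 probe sets for 9 of the genes, and 3 more for Tfrc among the array's own control probe sets. Ftl1, the gene of the ferritin light chain, has 3 probe sets that also carry symbols of other loci, so it has no value of its own here. The control mice are labelled wild type, and whether they carried floxed alleles is not given in the sources used here. The HDAC1/2 deficient mice carried floxed Hdac1 and Hdac2 and a villin-Cre transgene. It is meant to delete both genes in intestinal epithelial cells and not in the other cells of the colon. By staining of colon and jejunum, the paper reports no detectable HDAC1 in mutant epithelium but patchy HDAC2, left in some crypts and villi. Mice of both groups were 4 months old and received no treatment. By its label each sample is epithelium of the colon, but the extraction is described as total RNA of the colon. Each group has 3 arrays, numbered as replicates.

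Dietary iron is reduced at the brush border by the ferrireductase that Cybrd1 encodes, enters the enterocyte through the metal transporter encoded by Slc11a2 (DMT1), and leaves it at the basolateral side through ferroportin (Slc40a1) with the ferroxidase hephaestin (Heph). Most other cells take up transferrin-bound iron through transferrin receptor 1 (Tfrc), and the endosomal ferrireductase of Steap3 then reduces it. Ferritin, built of heavy (Fth1) and light (Ftl1) chains, stores iron. The iron regulatory proteins, one of which is encoded by Ireb2, bind hairpins in the mRNAs of Tfrc, ferritin, ferroportin and Slc11a2, and Hfe acts upstream of hepcidin, the hormone that removes ferroportin from the cell surface. Absorption takes place mainly in the duodenum, whereas macrophages recycle iron through ferroportin in many tissues.

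In HDAC1/2 deficient colon the iron exporter gene fell, and the transferrin receptor gene rose at 1 of its probe sets. Slc40a1 was 2.05-fold and 2.02-fold lower at its pair of probe sets. Tfrc was 2.62-fold higher at its brightest probe set, whereas its other 5 probe sets, 3 of them control probe sets of the array, did not pass and had log2 fold changes from -0.12 to 0.11. Slc11a2 was higher at a pair of its 4 probe sets, Hfe was lower at both of its own, and Cybrd1, Fth1, Steap3 and Ireb2 were lower by small amounts at 1 or 2 probe sets each. In contrast, Heph, the partner of ferroportin, did not pass the test. Each probe set was compared with limma on log2 signals, and it passed at a Benjamini-Hochberg adjusted p under 0.05 over all 45037 probe sets. Of the 20 iron gene probe sets, 3 were higher, or 15%, where 18.8% of all probe sets were higher. Lower were 9 of the 20, or 45%, where 21.0% of all probe sets were lower. Only 5 of the 20 were below the median signal, and brighter probe sets passed more often. In a fit of probe sets above the 40th percentile of signal, 28.4% were higher and 32.4% lower, so part of the gap goes with signal. The groups did not overlap at 15 of the 20 probe sets, or 75%, against 50.0% of all probe sets. A called change beyond 2-fold was seen at 3 of the 20, or 15%, against 2.79% of all probe sets. Over the 20 probe sets the median log2 fold change was -0.15, and over all probe sets it was -0.0068. At the brightest probe set of each gene, 1 of 9 genes was higher, where 21.9% of all genes were higher, and 5 of 9 were lower, where 28.4% of all genes were lower. Probe sets of 1 gene share their target, so they are not independent counts.

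**Figure D1:**
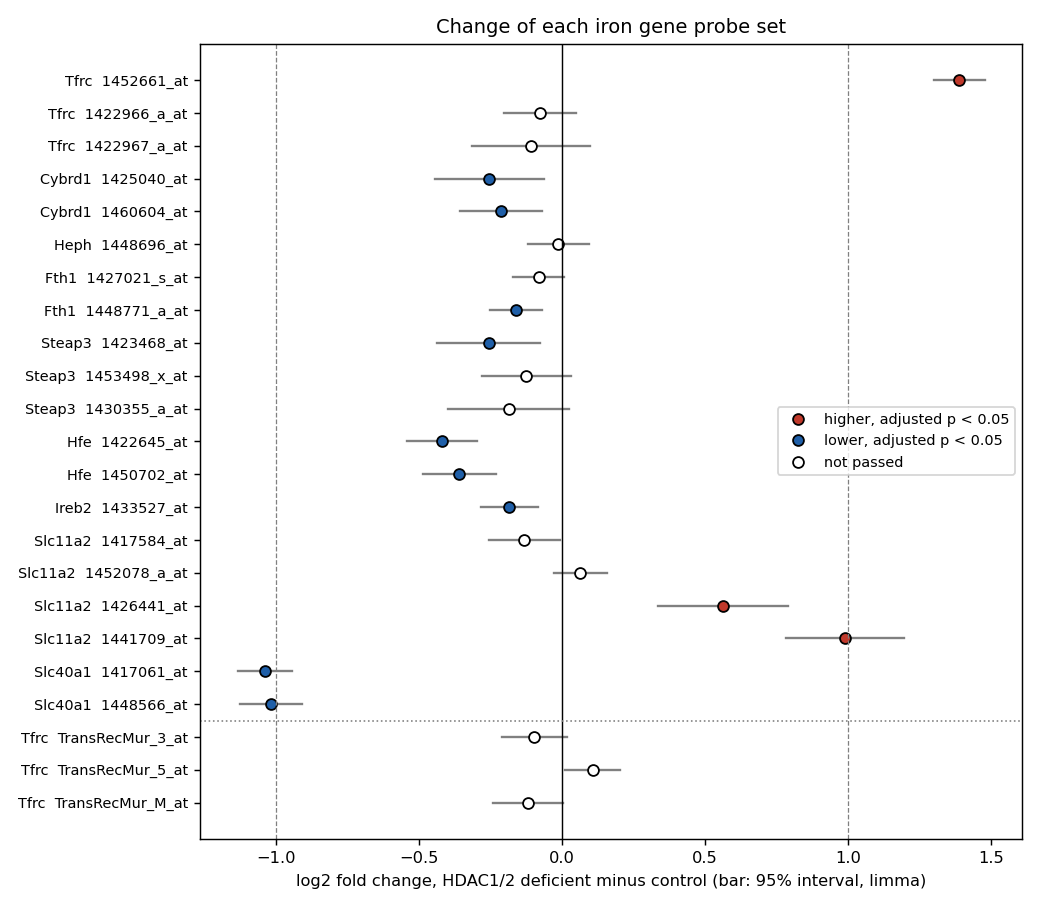
Log2 fold change (HDAC1/2 deficient minus control, horizontal axis) of each iron gene probe set with its 95% interval from limma, 3 arrays per group. Points are filled where the adjusted p was under 0.05 and open elsewhere, and below the dotted line stand the 3 Tfrc control probe sets of the array (TransRecMur). The largest rise is that of Tfrc at 1.39, the largest falls are those of Slc40a1 at -1.04 and -1.02, and the dashed lines mark 2-fold.

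The arrays themselves set the frame for these values. The deposited log2 signals ran from 2.79 to 14.85, and the median of each array was between 6.78 and 6.81. Over all probe sets, which are no replicates of each other, the correlation was 0.9984 to 0.9988 between arrays of a group and 0.9824 to 0.9828 between the groups. Hdac1 was lower on every deficient array (log2 fold change -1.30), whereas none of 3 Hdac2 probe sets passed, with log2 fold changes from -0.067 to 0.046, and whether they detect the deleted part of the gene is unknown. Sex-linked RNA differed as well, with Xist, the RNA of the inactive X chromosome, lower by 0.83 to 1.81 on the log2 scale at 3 probe sets and the Y-linked Eif2s3y at 3.84 to 4.31 in control and 8.22 to 8.49 in deficient colon at its brightest probe set. Sex and genotype cannot be told apart here. The 3′ minus 5′ difference of the Actb control probe sets, a sign of RNA integrity, was 0.59 to 0.62 in control and 0.42 to 0.46 in deficient colon on the log2 scale, and for Gapdh it was -0.094 to -0.0017 and -0.14 to -0.094. The 18S ribosomal RNA control probe sets were lower in deficient colon without overlap, at 12.83 to 13.12 against 12.17 to 12.20 at the 3′ probe set, 12.81 to 13.14 against 11.54 to 11.82 at the middle and 13.79 to 13.92 against 13.28 to 13.46 at the 5′ probe set. Their part in the values of the iron genes was not tested. The sample titles number the arrays as replicates, and the methods name 3 mice per group. Every deficient array carried Eif2s3y signal together with Xist signal, the latter at 11.99 to 12.06 at its brightest probe set. Whether each array holds RNA of 1 mouse is therefore not certain. The p-values rest on the spread between 3 arrays per group, which limma shares across probe sets.

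Promoters are among the places where histone acetylation bears on transcription, and acetylation was not measured here. Several of these genes are known targets of hypoxia-inducible factors, which bind a core of ACGTG or GCGTG. RefSeq windows (build GRCm38.p6) were found for 7 of the 10 genes and for none of Slc11a2, Slc40a1 and Heph. The stretches below run from 250 bases before an annotated start to 3 bases after it, and capitals mark each match to ACGTG or GCGTG on either strand, where the other strand reads CACGT or CACGC. Of the 12 windows, 4 are shown, namely the upstream window of Tfrc, which rose at 1 probe set, and windows of Cybrd1, Fth1 and Hfe, each lower at 1 or 2 probe sets.
Tfrc, chr16:32608646-32608898, plus strand: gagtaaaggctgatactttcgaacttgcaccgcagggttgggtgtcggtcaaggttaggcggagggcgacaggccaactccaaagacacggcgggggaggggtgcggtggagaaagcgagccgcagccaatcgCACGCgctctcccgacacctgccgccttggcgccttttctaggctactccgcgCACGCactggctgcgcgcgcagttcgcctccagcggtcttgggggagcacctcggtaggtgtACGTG
Cybrd1, chr2:71117804-71118056, plus strand: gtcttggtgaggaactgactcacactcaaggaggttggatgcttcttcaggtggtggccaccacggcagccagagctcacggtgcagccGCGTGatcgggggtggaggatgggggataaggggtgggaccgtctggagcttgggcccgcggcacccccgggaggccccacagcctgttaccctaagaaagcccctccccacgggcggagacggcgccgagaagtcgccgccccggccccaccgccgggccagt
Fth1, chr19:9982396-9982648, plus strand: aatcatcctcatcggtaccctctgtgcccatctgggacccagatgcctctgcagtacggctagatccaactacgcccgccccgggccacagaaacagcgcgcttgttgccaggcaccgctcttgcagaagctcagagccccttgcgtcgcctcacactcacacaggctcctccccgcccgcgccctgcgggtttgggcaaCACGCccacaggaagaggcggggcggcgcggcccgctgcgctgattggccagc
Hfe, chr13:23710852-23711104, minus strand: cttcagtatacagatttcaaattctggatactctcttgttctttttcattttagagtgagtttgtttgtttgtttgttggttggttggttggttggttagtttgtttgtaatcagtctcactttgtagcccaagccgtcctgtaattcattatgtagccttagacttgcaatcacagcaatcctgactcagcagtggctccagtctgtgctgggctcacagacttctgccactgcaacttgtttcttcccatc
Tfrc held 3 matches in this window, the first bases of which were at positions -117, -64 and -2 from the start, and Cybrd1 held 1 at -161 and Fth1 1 at -50. Hfe held none. The windows not shown differ from these. The other window of Tfrc, which overlaps the first and shares 1 of its matches, held 3, and the other window of Fth1 held 0. Ftl1 held 1, Ireb2 held 0, and Steap3 held 1 in 1 of its 4 windows. Thus 6 of the 12 windows held a match. Of all 32851 windows, 39.0% held at least 1 match in the same 253 bases, so a match alone does not set a gene apart. A match is a run of letters and not a shown binding site.

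Tfrc, the gene of the receptor that takes up transferrin-bound iron, carried the largest rise, and it did so at 1 probe set. Probe set 1452661_at had log2 signals of 12.10, 12.06 and 12.08 in control and 13.48, 13.46 and 13.46 in deficient colon. All 3 deficient arrays stood above all control arrays (log2 fold change 1.39, standard error or SE 0.038, adjusted p = 2.99e-07 in limma), and without any 1 array the value stayed between 1.38 and 1.40. The other probe sets of Tfrc behaved differently. Probe set 1422966_a_at was at 8.37, 8.23 and 8.29 in control and 8.28, 8.16 and 8.23 in deficient colon, so the groups overlapped (log2 fold change -0.076, 95% interval -0.20 to 0.049, adjusted p = 0.316). The dim probe set 1422967_a_at was at 5.27, 5.04 and 5.37 in control and 5.21, 5.07 and 5.06 in deficient colon (log2 fold change -0.11, 95% interval -0.31 to 0.099, adjusted p = 0.391). Thus neither showed the rise of the bright probe set, and both intervals lie far below it.

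The array also carries control probe sets for the 3′ end, the middle and the 5′ end of the Tfrc transcript, which were fitted together with all others. The 3′ probe set was at 7.65, 7.63 and 7.69 in control and 7.49, 7.62 and 7.57 in deficient colon (log2 fold change -0.097, adjusted p = 0.163). The middle probe set was at 5.08, 5.01 and 5.06 against 4.84, 4.99 and 4.97 (log2 fold change -0.12, adjusted p = 0.121). The 5′ probe set was at 4.32, 4.35 and 4.36 against 4.42, 4.49 and 4.45 (log2 fold change 0.11, adjusted p = 0.0766). None of the 3 passed, although in each the groups did not overlap, so 5 of the 6 Tfrc probe sets had no call. These 5 do not weigh alike. Probe set 1422967_a_at and the middle and 5′ control probe sets were dim, at percentiles 21.0, 18.5 and 10.9 of signal, and could show little. Probe set 1422966_a_at and the 3′ control probe set stood at percentiles 69.6 and 62.0. The signal of 1452661_at minus that of 1422966_a_at was 3.72, 3.82 and 3.79 on the control arrays and 5.20, 5.30 and 5.23 on the deficient arrays. These ranges did not overlap (exact permutation test, two-sided p = 0.1, the smallest that 3 against 3 arrays allow, and 0.155 after adjustment over 17 pairs of probe sets). As the mean of its 3 probe sets outside the control set, Tfrc rose by 0.40 on the log2 scale (adjusted p = 2.53e-04). Where each probe set lies on the transcript is not known here, and which of them follows the receptor mRNA was not tested.

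**Figure D2:**
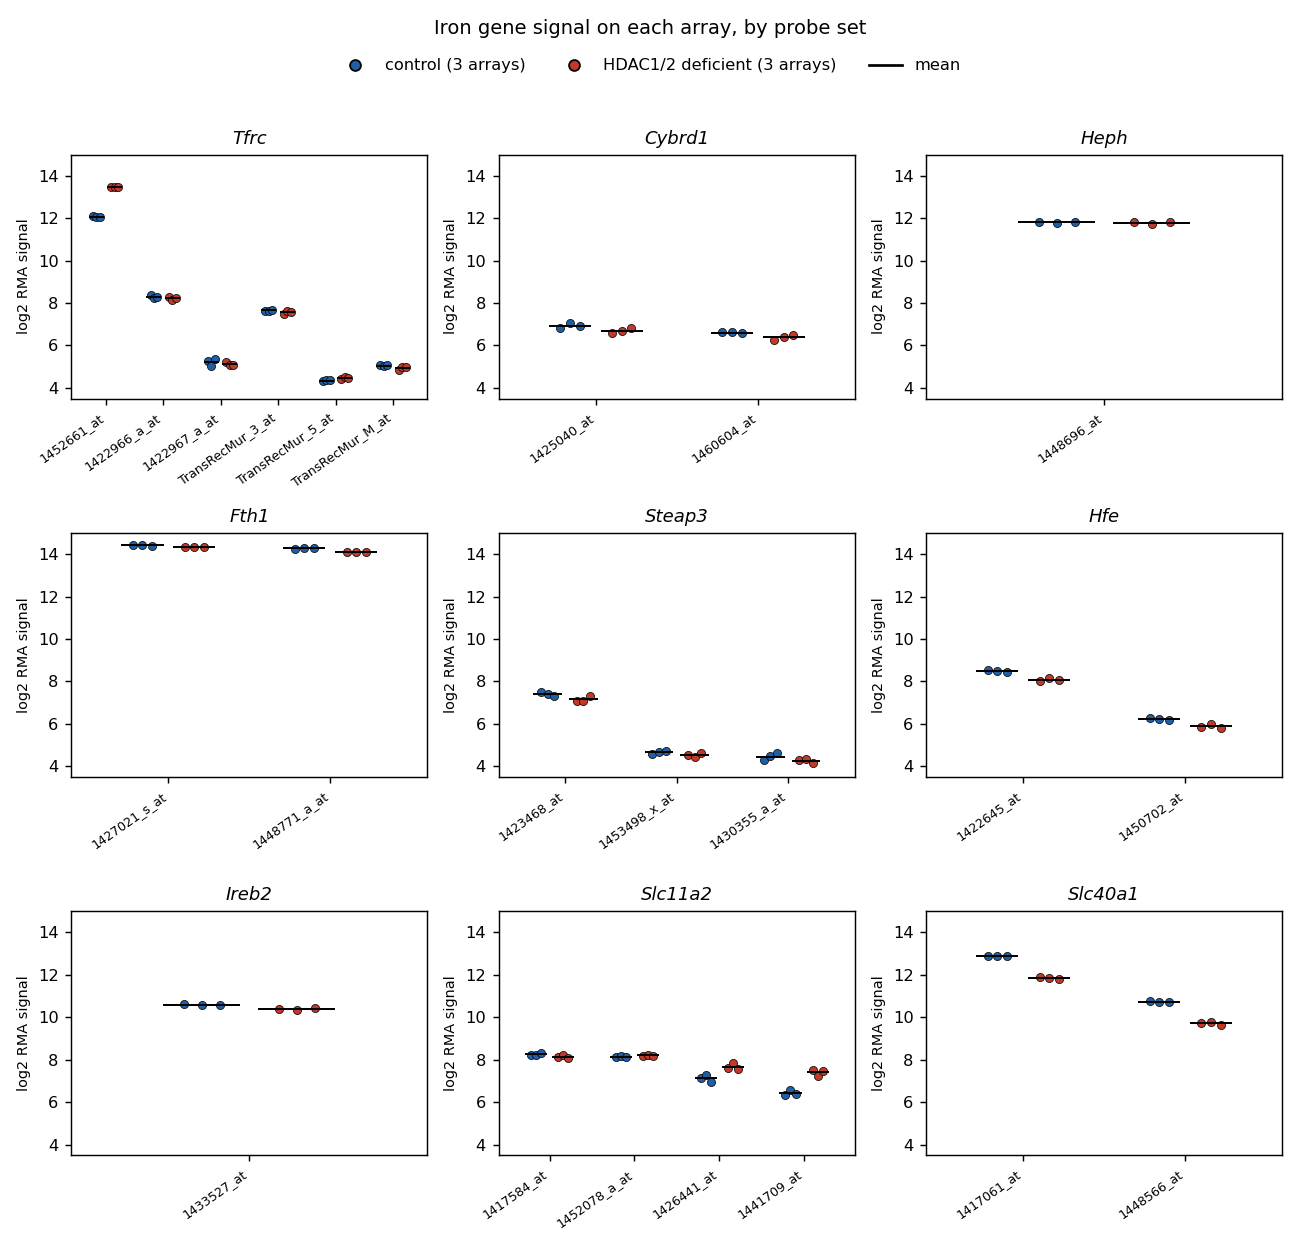
Log2 RMA signal (vertical axis) of every iron gene probe set (horizontal axis) on each of 3 control (blue) and 3 HDAC1/2 deficient (red) arrays, with the group mean as a bar. Tfrc rises at 1452661_at from 12.08 to 13.47 and changes by -0.12 to 0.11 at its other probe sets, TransRecMur being the array's control probe sets for this gene, whereas Slc40a1 falls at both of its probe sets and Slc11a2 rises at its pair of dimmest ones.

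Slc40a1, the gene of ferroportin, the iron exporter of enterocytes and macrophages, fell at both of its probe sets. Probe set 1417061_at was at 12.91, 12.88 and 12.87 in control and 11.88, 11.85 and 11.82 in deficient colon (log2 fold change -1.04, SE 0.040, adjusted p = 1.56e-06). Probe set 1448566_at was at 10.77, 10.73 and 10.72 in control and 9.74, 9.77 and 9.66 in deficient colon (log2 fold change -1.02, SE 0.046, adjusted p = 3.10e-06). Every deficient array lay below every control array at both, and the falls differed by 0.022 on the log2 scale (exact permutation test, two-sided p = 0.6 and 0.68 over 17 pairs). In RNA of a whole tissue, fewer cells of a type and less RNA per cell cannot be told apart. Macrophage markers moved the other way, with 10 of 12 higher and 0 lower, a median log2 fold change of 0.86, and a mean log2 level of 8.60 to 8.67 on control and 9.34 to 9.37 on deficient arrays. Csf1r, the receptor gene that maintains macrophages, rose by 1.12, and the complement genes C1qa, C1qb and C1qc rose by 1.33, 1.19 and 1.07. Of 14 colon epithelium markers 5 were higher and 3 lower, with a median log2 fold change of 0.011. Among the higher were Krt20 (0.67), a keratin gene, Car1 (0.57), a carbonic anhydrase gene, Cdx2 (0.56), an intestinal transcription factor gene, and Vil1 (0.35), the villin gene. The lower were Slc26a3 (-0.34), Cdx1 (-0.22) and Epcam (-0.16). The mean log2 level of these markers was 13.43 on each control array and 13.53 to 13.54 on the deficient arrays. The part of either cell type in the fall of Slc40a1 was not tested.

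Slc11a2 encodes DMT1, which carries ferrous iron over the apical membrane and out of endosomes, and its 4 probe sets did not move together. The brightest, 1417584_at, was at 8.23, 8.21 and 8.32 in control and 8.11, 8.20 and 8.07 in deficient colon, slightly lower without overlap, and did not pass (log2 fold change -0.13, 95% interval -0.25 to -0.0069, adjusted p = 0.0908). It passed as lower without deficient array 2 (adjusted p = 0.0493) and where dim probe sets were filtered out (adjusted p = 0.0489). Probe set 1452078_a_at was at 8.13, 8.15 and 8.13 against 8.19, 8.23 and 8.18 (log2 fold change 0.064, 95% interval -0.028 to 0.16, adjusted p = 0.252). The dimmer pair rose. Probe set 1426441_at was at 7.13, 7.26 and 6.95 in control and 7.62, 7.84 and 7.57 in deficient colon (log2 fold change 0.56, SE 0.097, adjusted p = 0.00241). Probe set 1441709_at was at 6.32, 6.55 and 6.39 in control and 7.51, 7.25 and 7.46 in deficient colon (log2 fold change 0.99, SE 0.088, adjusted p = 7.63e-05). Both calls held without any 1 array. The difference between the brightest and the dimmest probe set was 1.92, 1.66 and 1.94 on control arrays and 0.59, 0.95 and 0.60 on deficient arrays (exact permutation test, two-sided p = 0.1, the smallest possible, and 0.155 over 17 pairs). Averaged over its 4 probe sets, Slc11a2 rose by 0.37 on the log2 scale (adjusted p = 1.27e-04), against the sign of its brightest probe set. The gene is known to give mRNAs with different first exons and different ends, and which of them each probe set detects is not known here.

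The other genes of apical uptake and basolateral export showed small changes or none that passed. Cybrd1, the brush border ferrireductase gene, was at 6.82, 7.07 and 6.91 in control and 6.57, 6.67 and 6.81 in deficient colon at probe set 1425040_at (log2 fold change -0.25, SE 0.082, adjusted p = 0.0416). At probe set 1460604_at it was at 6.63, 6.61 and 6.58 against 6.28, 6.42 and 6.49 (log2 fold change -0.21, SE 0.061, adjusted p = 0.0260). The deficient arrays were lower than the control arrays at both, by a narrow gap. The first call was lost without control array 2 or 3 or deficient array 1 or 2 (adjusted p from 0.0825 to 0.126 in these 4 cases), and the second without control array 1 or 2 or deficient array 1 or 2 (adjusted p up to 0.0750). Heph, the ferroxidase gene, was at 11.82, 11.79 and 11.82 in control and 11.83, 11.73 and 11.83 in deficient colon. The groups overlapped, and the interval of the difference, -0.12 to 0.095 on the log2 scale, lies far from the value of Slc40a1 (log2 fold change -0.012, adjusted p = 0.866).

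Cybrd1, Slc11a2 and Heph are genes of the absorptive enterocyte and are best known from the duodenum. Markers of the small intestinal enterocyte were mixed, with 6 of 13 higher, 2 lower and 5 not passed, a median log2 fold change of 0.14 and a mean log2 level of 7.35 to 7.45 on control and 8.36 to 8.37 on deficient arrays. The rises were large in Alpi (5.08), the intestinal alkaline phosphatase gene, Mttp (4.03), which encodes the lipid transfer protein of chylomicron assembly, and Fabp1 (3.41), a fatty acid binding protein gene. In contrast, Slc5a1, the sodium-glucose transporter gene, fell by 0.54 on the log2 scale. Their relation to the iron genes was not tested.

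Ferritin heavy chain, the subunit that oxidizes iron for storage, gave signals near the highest on the array at both of its probe sets. Fth1 was at 14.24, 14.27 and 14.29 in control and 14.10, 14.12 and 14.10 in deficient colon at probe set 1448771_a_at (log2 fold change -0.16, SE 0.039, adjusted p = 0.0130). At probe set 1427021_s_at, the brighter of the pair, it was at 14.44, 14.42 and 14.40 against 14.34, 14.34 and 14.34 (log2 fold change -0.081, SE 0.038, adjusted p = 0.138). The deficient arrays were lower at both, with 1.12-fold and 1.06-fold differences. The brighter probe set, whose ID marks sequence shared with other transcripts, passed as lower with a trended and robust variance (adjusted p = 3.54e-04). Ncoa4, the gene of the receptor that delivers ferritin to lysosomes, fell by 0.43 on the log2 scale at its brightest probe set. Pcbp2, the gene of an iron chaperone of ferritin and a poly(rC)-binding protein, fell by 0.40 there, and its 3 probe sets disagreed, 2 being lower and 1 higher.

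Hfe, Ireb2 and Steap3, the gene of the endosomal reductase, were lower by less than 1.4-fold. Aco1, another listed gene of iron sensing, was higher at its brightest probe set (log2 fold change 0.32, SE 0.061, adjusted p = 0.00430). Hfe, the hemochromatosis gene, was at 8.56, 8.50 and 8.44 in control and 8.02, 8.14 and 8.08 in deficient colon at probe set 1422645_at (log2 fold change -0.42, SE 0.053, adjusted p = 4.67e-04). At probe set 1450702_at it was at 6.28, 6.23 and 6.20 against 5.86, 5.97 and 5.81 (log2 fold change -0.36, SE 0.054, adjusted p = 0.00127). Hfe was thus lower on all deficient arrays at both, and both calls held without any 1 array. Ireb2, the gene of iron regulatory protein 2, was at 10.62, 10.57 and 10.57 in control and 10.41, 10.36 and 10.44 in deficient colon (log2 fold change -0.18, SE 0.042, adjusted p = 0.0101), a 1.14-fold difference that also held without any 1 array. Steap3 was at 7.48, 7.43 and 7.33 in control and 7.06, 7.09 and 7.32 in deficient colon at probe set 1423468_at, where deficient array 3 nearly reached the lowest control array (log2 fold change -0.26, SE 0.077, adjusted p = 0.0323). This call was lost without control array 1 or 2 or deficient array 1 or 2 (adjusted p from 0.0814 to 0.102) and with the replicate number as a block (adjusted p = 0.0677). The other probe sets of Steap3 were dim, at the 10th and 13th percentile of signal, overlapped between the groups, and had log2 fold changes of -0.12 and -0.19 (adjusted p = 0.189 and 0.147), the last passing without control array 1 (adjusted p = 0.0366).

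Tfrc is high in dividing cells, in erythroid precursors and in activated lymphocytes, so markers of these are set beside it. All 13 measured genes of S phase and mitosis rose, with a median log2 fold change of 0.74 and a mean log2 level of 10.04 to 10.10 on control and 10.82 to 10.86 on deficient arrays. Rrm2, a subunit gene of ribonucleotide reductase, rose by 1.65, the mitotic kinase gene Plk1 by 1.02, and the replication helicase genes Mcm3 and Mcm5 by 0.93 and 0.92. Of 8 B and T lymphocyte genes 7 rose and 0 fell, with a mean log2 level of 7.42 to 7.51 on control and 8.38 to 8.41 on deficient arrays. The antigen receptor subunit genes Cd79b, Cd3g and Cd3d rose by 1.65, 1.62 and 0.97, and Ms4a1, the CD20 gene, by 1.48. Of 7 erythroid markers 1 was higher, 1 lower and 5 did not pass, and their mean log2 level was 6.21 to 6.23 on control and 5.82 to 5.91 on deficient arrays. Without Ermap, the gene of an erythroid membrane protein, which fell by 2.77 on the log2 scale, the mean of the other 6 was 5.50 to 5.53 on control and 5.52 to 5.61 on deficient arrays. Rhag, a blood group membrane protein gene, rose by 0.23, but at the 1.5th percentile of signal, among the dimmest probe sets of the array. The other log2 fold changes were -0.054 for Hba-a1, the globin gene, 0.052 for Alas2, the erythroid enzyme gene of heme synthesis, 0.023 for Slc4a1, the band 3 gene, -0.0087 for Epb42, a membrane skeleton gene, and 0.14 for Klf1, an erythroid transcription factor gene. These 5 erythroid probe sets were also below the median signal, from percentile 20.1 for Hba-a1 to 47.1 for Klf1. Only 7 of the 12 erythroid genes listed were measured, so these values say little about erythroid RNA. The part of cycling, erythroid and lymphoid cells in the rise of Tfrc at 1452661_at was not tested.

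Marker genes of other tissues also differed between the groups. Of 10 pancreatic acinar genes 8 were higher and 1 lower (median log2 fold change 4.87), with a mean log2 level of 6.95 to 7.04 on control and 10.75 to 10.81 on deficient arrays. The digestive enzyme genes Cela2a, Cpb1, Cpa1 and Ctrl rose by 7.40, 7.24, 5.64 and 5.21. The acinar transcription factor genes had log2 fold changes of 0.16 (Ptf1a, adjusted p = 0.0271) and -0.12 (Rbpjl, adjusted p = 0.520). All 10 smooth muscle genes were lower (median -0.49, mean log2 level 12.38 to 12.39 against 11.90 to 11.93), among them Des (-0.69), Synpo2 (-0.62), Smtn (-0.60) and Myh11 (-0.58), genes of the contractile apparatus and cytoskeleton. Of 11 squamous epithelium genes 9 were lower and 1 higher (median -1.53, mean log2 level 8.62 to 8.78 against 7.09 to 7.12), among them the keratin genes Krt6b (-3.19) and Krt10 (-3.15), the transglutaminase gene Tgm3 (-2.93) and Krtdap (-2.90), a keratinocyte differentiation gene. Whether more or less of a tissue or expression within the colon lies behind these values cannot be told apart, and their part in the values of the iron genes was not tested.

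**Figure D3:**
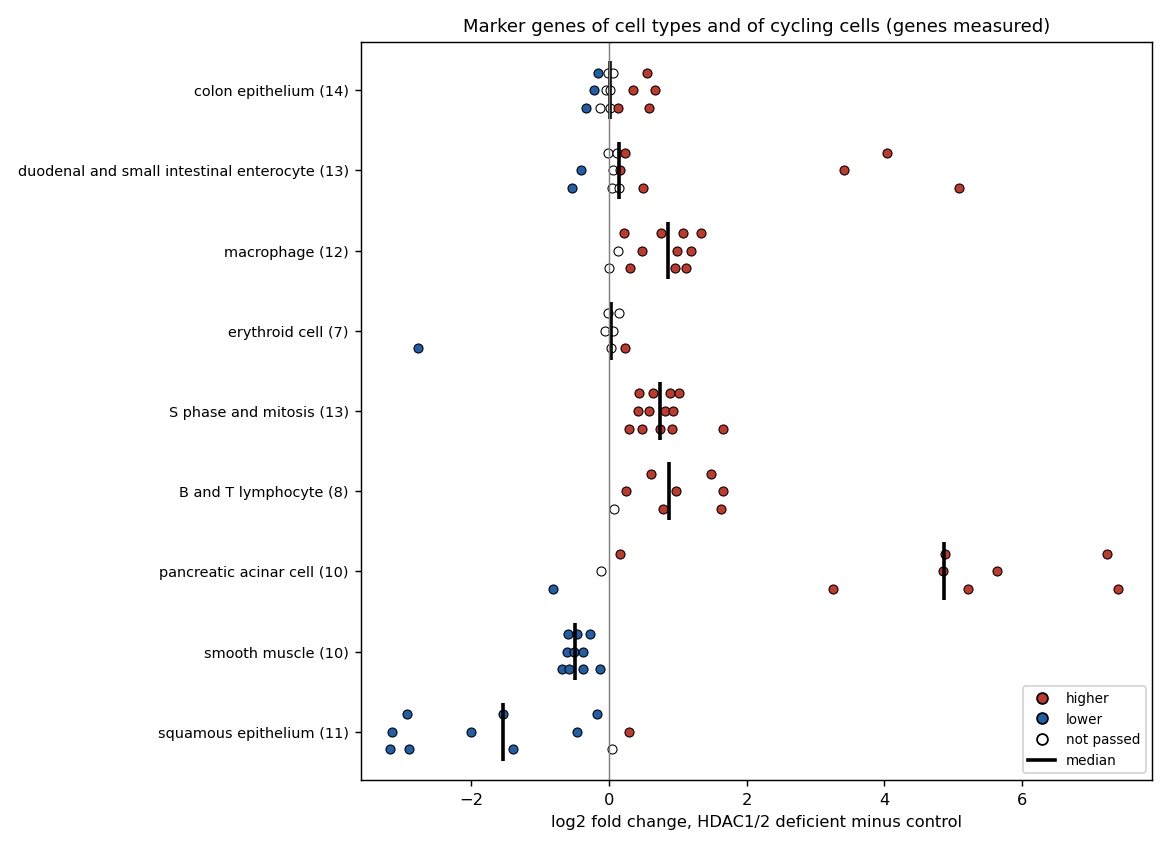
Log2 fold change (HDAC1/2 deficient minus control, horizontal axis, 3 arrays per group) of single marker genes in 9 lists, with the number of measured genes after each name. Points are red or blue where limma gave an adjusted p under 0.05 and open elsewhere, and a black bar marks the median of the list, which is 0.86 for macrophage, 0.74 for S phase and mitosis and 0.023 for erythroid cell genes.

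Beyond the 10 genes, 67 other genes of iron and heme handling were measured of 72 listed, and they did not share a direction. Of these, 22 were higher, 23 lower and 22 did not pass, or 32.8% higher and 34.3% lower against 21.9% and 28.4% of all genes, with a median log2 fold change of -0.0043 against -0.022. Among 10 genes of metal import and ferrireductases, 3 were higher and 5 lower. Steap4, a ferrireductase gene of the same family as Steap3 that inflammatory cytokines induce, was 4.96-fold higher, with a mean of 7.65 ± 0.16 (SD, n = 3) in control against 9.96 ± 0.065 (SD, n = 3) in deficient colon (log2 fold change 2.31, SE 0.082, adjusted p = 9.95e-07). Slc39a8, the gene of the metal importer ZIP8, was 2.41-fold lower, with a mean of 9.61 ± 0.077 (SD, n = 3) in control against 8.34 ± 0.079 (SD, n = 3) in deficient colon (log2 fold change -1.27, SE 0.060, adjusted p = 3.68e-06). The ferrireductase gene Steap1 rose by 0.45, and Mcoln1, a lysosomal iron channel gene, fell by 0.42 on the log2 scale.

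Among 13 genes of heme breakdown and transport, 6 were higher and 3 lower, or 46% and 23%, against 21.9% and 28.4% of all genes. Lcn2, the gene of lipocalin 2, which binds bacterial iron-carrying siderophores, was 8.05-fold higher, with a mean of 7.18 ± 0.066 (SD, n = 3) in control against 10.19 ± 0.056 (SD, n = 3) in deficient colon (log2 fold change 3.01, SE 0.052, adjusted p = 3.58e-08). The plasma scavenger genes Hpx, which encodes the heme carrier hemopexin, and Hp, which encodes haptoglobin, rose by 1.29 and 0.95 on the log2 scale. Slc46a1, which encodes the proton-coupled folate transporter first described as a heme carrier, was 1.93-fold lower (log2 fold change -0.95, SE 0.048, adjusted p = 4.86e-06), and both of its probe sets fell. Of 10 genes of plasma iron carriers and hepcidin control, 2 were higher and 3 lower, or 20% and 30%, near the shares of all genes. Cp, the gene of the plasma ferroxidase ceruloplasmin and a homolog of Heph, rose by 1.11 at its brightest probe set (adjusted p = 6.03e-06) and by 0.014 to 1.27 over its 8 probe sets, of which 4 passed as higher. Bmp2, a ligand gene of the hepcidin pathway, and Smad7, an inhibitor gene of it, fell by 0.47 and 0.42, and Hamp2, a hepcidin gene, fell by 0.37 at 1 of 2 probe sets. In contrast, Hamp did not pass at its brightest probe set (log2 fold change 0.062, adjusted p = 0.277), and Id1 of the same list rose by 0.34.

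**Figure D4:**
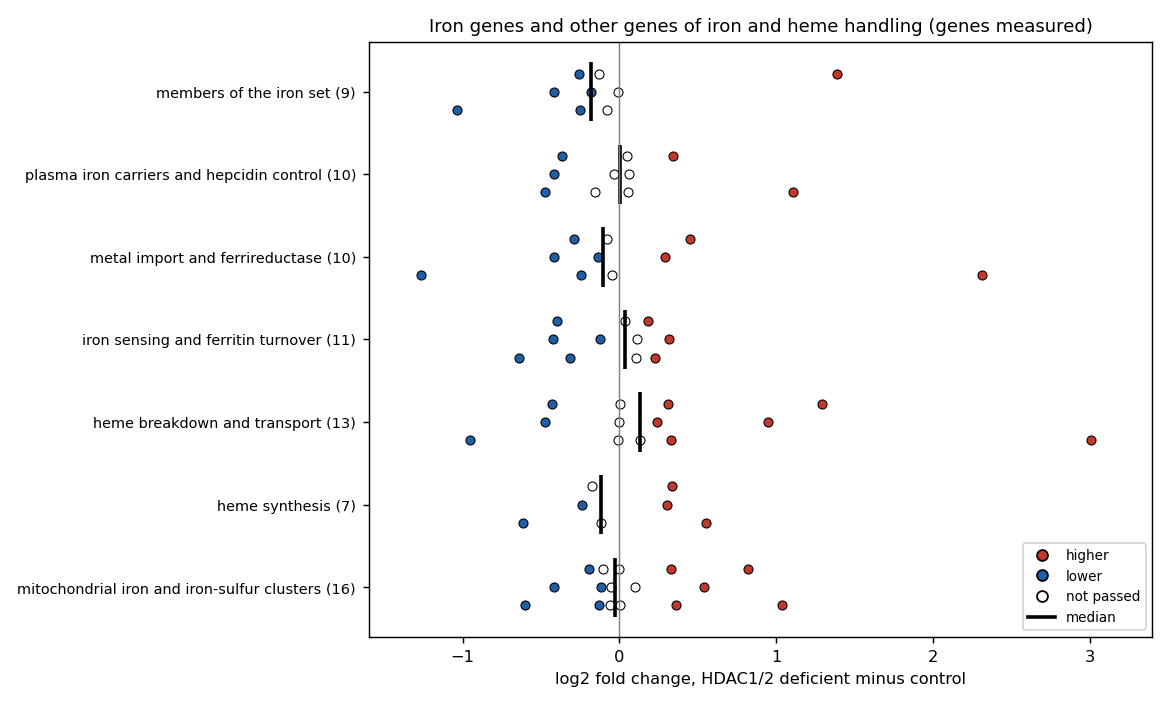
Log2 fold change (HDAC1/2 deficient minus control, horizontal axis, 3 arrays per group) of the 9 iron genes measured and of 6 lists of other iron and heme genes, each gene at its brightest probe set, with the number of measured genes after each name. Points are red or blue where limma gave an adjusted p under 0.05 and open elsewhere, and a black bar marks the median. Lcn2 at 3.01 and Steap4 at 2.31 lie farthest to the right, and Slc39a8 at -1.27 and Slc40a1 at -1.04 farthest to the left.

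The lists of iron sensing, heme synthesis and mitochondrial iron each held higher and lower genes. Over all genes, 21.9% were higher and 28.4% lower. Of 11 genes of iron sensing and ferritin turnover, 3 were higher and 5 lower, or 27% and 45%. The 3 higher genes were Aco1 (0.32), Egln3 (0.23) and Hif1a (0.18), each at its brightest probe set. Epas1, which encodes the hypoxia-inducible factor HIF-2α that is known to drive Cybrd1, Slc11a2 and Slc40a1 in the enterocyte, was 1.56-fold lower at its brightest probe set (log2 fold change -0.64, SE 0.040, adjusted p = 1.47e-05) and had a log2 fold change of 0.061 at the other, which did not pass. Vhl, the gene of the factor that marks HIF proteins for degradation, fell by 0.32 at 1 of 2 probe sets. The part of Epas1, Hif1a and Vhl in the values of the iron genes was not tested. Of 7 heme synthesis genes 3 were higher and 2 lower, or 43% and 29%. Among them were Alas1 (0.55), the first enzyme of the pathway outside erythroid cells, Alad (0.33) and Cpox (0.30), enzymes of the intermediate steps, and Fech (-0.62), the ferrochelatase gene that inserts iron. Of 16 genes of mitochondrial iron and iron-sulfur clusters, 5 were higher and 5 lower, or 31% each. Nubp2, a cytosolic scaffold gene of cluster assembly, rose by 1.04, the mitochondrial iron importer gene Slc25a37 (mitoferrin 1) by 0.82 and the glutaredoxin gene Glrx5 by 0.54, and the cochaperone gene Hscb fell by 0.60 on the log2 scale.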

How the data were processed

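Affymetrix mouse genome GeneChip arrays, 3 per group, measured RNA of the colon. The deposited table holds log2 signals of probe sets after RMA, run by the authors in Flexarray. Groups and replicate numbers came from the sample titles. Of 45101 probe sets 64 control probe sets were left out, and 45037 remained for lmFit and eBayes without covariates (limma 3.58.1, R 4.3.3), with Benjamini-Hochberg adjustment across this whole set. The 3 control probe sets of Tfrc were added in a further fit. Symbols came from the platform annotation, updated by gene ID through RefSeq (34945 probe sets with 1 symbol, 932 with several, 9160 with none, and none named from several). A gene is given by its brightest probe set, and the 10 iron genes by every probe set. Some brightest probe sets, such as those of Aco1, Hamp, Hamp2, Steap1, Mcoln1, Slc46a1 and Fech, have IDs that mark shared sequence. From each other list the 4 genes with the largest change among those that passed are named. The members, lists and tests were chosen with earlier results of these data known. Eif2s3y, Xist, Hba-a1, Alas2, Slc4a1, Epb42, Klf1, Ptf1a and Rbpjl were named after their values were seen. So were Slc26a3, Cdx1, Epcam, Aco1, Egln3, Hif1a, Hamp and Id1. RMA compresses changes of dim probe sets, and the number of arrays limits the precision. The methods' t-test, scaling, filter, variance, shared-sequence, block and leave-one-out alternatives were run, and the scripts were tested on simulated data. Promoters came from RefSeq (GRCm38.p6). Some listed genes are not reported here. Figures were drawn with matplotlib 3.10.9.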

Additional observations from a re-analysis of the deposited data

How the results depend on the processing

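With 3 arrays per group, calls of Tfrc, Slc40a1, Hfe and Ireb2 kept their direction and their side of the threshold under all 17 alternatives run, 16 of them at the brightest probe set and 1 at the mean of a gene's probe sets. Tfrc was at 1.37 to 1.40 on the log2 scale in the 16 and 0.40 in the mean. For Tfrc the 16 all used 1452661_at, so they cannot decide between its probe sets, which disagree. Slc40a1 was at -1.06 to -1.02, Hfe at -0.45 to -0.39 and Ireb2 at -0.20 to -0.16. With each gene averaged over its probe sets, 2 iron genes were higher instead of 1, since Slc11a2 turned from -0.13 to 0.37 on the log2 scale. Heph ranged from -0.029 to 0.022 without 1 array, was above 0 without deficient array 2, and passed nowhere. Leaving out 1 array at a time gave 3 to 5 iron genes lower at the brightest probe set instead of 5, with 3 without control array 2 or deficient array 1, where Cybrd1 and Steap3 were lost. The call of Cybrd1 was lost in 6 of 17 alternatives and that of Steap3 in 7, both including the methods' t-test (unadjusted p = 0.0624 and 0.0662, without an exact test), and Fth1 passed in 5 and Slc11a2 as lower in 2. The methods' t-test called 4 iron probe sets higher and 7 lower unadjusted, and 3 and 7 after Benjamini-Hochberg adjustment. Same-numbered arrays of the groups deviated together with correlations of 0.096, 0.064 and -0.026, and differently numbered ones with -0.10 to 0.030. Whether the numbers pair the mice cannot be told from these values. With the replicate number as a block 3 iron probe sets were higher, 8 lower, and 1 and 4 of the genes. Among the other iron genes the block gave 22 higher and 19 lower. With the Tfrc control probe sets added, an alternative chosen after seeing the data, 3 were higher and 9 lower. Dim probe sets of Steap3 and Tfrc limit what can be said of them.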
